A study of Homo sapiens with 11 samples.

Results

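The cytosolic ribosomal protein genes encode the proteins of the 80S ribosome, the particle that translates nuclear-encoded mRNA. They were taken by name: every gene symbol of the count files that is RPL or RPS followed by a number, with at most an A, X or L and a further number, plus RPLP0, RPLP1, RPLP2 and RPSA. The rule found 83 of 59087 genes, 51 of the large subunit (RPL) and 32 of the small subunit (RPS), and no measured value entered it. Of these, 7 are near copies of a core gene (RPL3L, RPL7L1, RPL10L, RPL22L1, RPL26L1, RPL39L and RPS27L). The genes lie on 21 chromosomes, with 12 on chromosome 19 and 4 on X. FAU, which encodes a ribosomal protein fused to a ubiquitin-like protein, does not match the rule and is given separately.

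A ribosome holds each of these proteins once, apart from the paired acidic stalk proteins, so their mRNAs are usually made in balanced amounts. Most of the mRNAs start with a C followed by a run of pyrimidines, the 5′ terminal oligopyrimidine (TOP) motif, through which the kinase mTORC1 and the binding protein LARP1 set their translation and stability. Growing tumour cells carry large amounts of these mRNAs, and several of them (RPLP0, RPL13A, RPS18) serve as reference genes in quantitative PCR.

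The RNA came from 2 human breast cancer lines that carry the estrogen receptor, BT483 and T47D-TamR, the second being a T47D derivative made resistant by continuous passage in tamoxifen and propagated in it. The study lowered nemo-like kinase (NLK), a protein kinase of the MAPK superfamily known from Wnt signalling, or gave tamoxifen (an antiestrogen) or VX-702 (a p38 kinase inhibitor). All cells were first deprived of estrogen for 48 h in stripped serum. In each line 4 libraries were transfected for 72 h at 10 nM: a pool of non-targeting control siRNAs, the same pool with 0.5 µM tamoxifen, and 2 siRNAs to NLK, called type 1 and type 2 in the labels. In T47D-TamR alone, 3 further libraries without siRNA received the vehicle DMSO, 0.5 µM tamoxifen or 0.5 µM VX-702. Each of the 11 groups is 1 library, so p-values come from fits that pool the spread over groups, and that spread may be technical.

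Total counts ran from 14637083 to 26915863 per library, with the 2 lowest in BT483 (control siRNA and type 1). NLK stood at 19.1, 5.54, 3.41 and 21.0 TPM in the BT483 libraries with control siRNA, type 1, type 2 and control siRNA with tamoxifen. In the same order it stood at 16.4, 5.37, 7.29 and 16.9 TPM in T47D-TamR, and at 19.2, 14.9 and 18.4 TPM with DMSO, VX-702 and tamoxifen without siRNA. NLK was thus lower in all 4 libraries labelled as knocked down than in the other 7. The summed TPM of 10 luminal markers was 14050 to 17340 in BT483 and 3756 to 5735 in T47D-TamR, and that of 10 leukocyte and endothelial markers at most 3.01 in any library, with 1 of the 10 at 0 throughout. That of 10 fibroblast markers was 4.04 to 5.10 in BT483 and 15.3 to 23.5 in T47D-TamR, and that of 8 basal markers 18.5 to 51.9 and 54.8 to 163; none of these 18 was at 0 in every library. The part of these lists in the line difference was not tested.

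The starts of the mRNAs show the TOP motif in the reference. RefSeq promoter sequences (GRCh38.p14) matched 66 of the 83 genes by symbol. The motif searched on the sense strand was a C at the annotated start followed by at least 4 more pyrimidines (C or T), so a run of at least 5 bases; for a gene with several starts, the one with the longest run counted. It was present in 47 of these 66 genes (71.2%), against 1404 of 27305 symbols in the whole table (5.14%). The following windows cover the 10 bases before and the 20 bases from the start for genes that the results turn on, with the run in capitals where the start has one.
RPS6 (chr9:19380217-19380246, minus strand): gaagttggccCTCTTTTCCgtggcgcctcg
RPL11 (chr1:23691796-23691825, plus strand): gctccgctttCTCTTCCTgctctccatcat
RPS12 (chr6:132814559-132814588, plus strand): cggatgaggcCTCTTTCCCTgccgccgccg
RPS18 (chr6:33272065-33272094, plus strand): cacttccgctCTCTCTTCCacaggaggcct
RPS21 (chr20:62387093-62387122, plus strand): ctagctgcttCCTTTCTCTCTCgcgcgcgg
RPL39 (chrX:119791611-119791640, minus strand): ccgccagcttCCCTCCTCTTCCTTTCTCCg
RPS27 (chr1:153990752-153990781, plus strand): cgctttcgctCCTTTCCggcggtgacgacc
RPS27L (chr15:63157458-63157487, minus strand): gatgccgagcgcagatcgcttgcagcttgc
RPL26 (chr17:8383174-8383203, minus strand): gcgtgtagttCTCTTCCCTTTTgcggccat
RPL26L1 (chr5:172958719-172958748, plus strand): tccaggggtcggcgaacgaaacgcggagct
RPL32 (chr3:12840431-12840460, minus strand): ggtgacccttgacctcctgggatcgcatct
RPL15 (chr3:23916535-23916564, plus strand): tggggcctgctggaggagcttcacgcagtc
The core genes RPS27 and RPL26 have a run of 7 and 12 bases at the start, and their copies RPS27L and RPL26L1 have none there. RPL32 and RPL15 have no such run at any of their 3 starts in the table, of which 1 is shown.

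Taken over all libraries, the ribosomal protein mRNAs covered a wide range of levels (TPM, a measure per length that allows genes to be compared). Among the highest by mean were RPL8 (2222 TPM, range 1110 to 3401), RPS21 (1550 TPM, 352 to 3753), RPL19 (1049 TPM), RPS6 (798 TPM, the subunit protein phosphorylated by S6 kinases) and RPL10A (766 TPM). The lowest were RPL3L (0.122 TPM), RPL10L (2.26 TPM), RPL36A (6.49 TPM), RPS28 (6.52 TPM), RPL21 (8.06 TPM) and RPS10 (10.5 TPM). The order among core genes does not measure their output alone, because reads also went to processed copies. In all, 1136 copies are annotated as named pseudogenes of 76 of the genes. Not all of them held reads: the 3 of RPS21 had 0 counts. Pseudogenes held 96.7% of the counts shared by RPS28 and its copies, 94.8% for RPL7, 93.4% for RPL39 and 90.5% for RPL21, and over 50% for 21 genes in all. For RPL8, RPS21 and RPL19 they held at most 0.0949%. How reads that match a gene and its copies were counted is not given in the sources used here. RPS10 and RPL36A also overlap readthrough genes that can take reads.

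**Figure D1:**
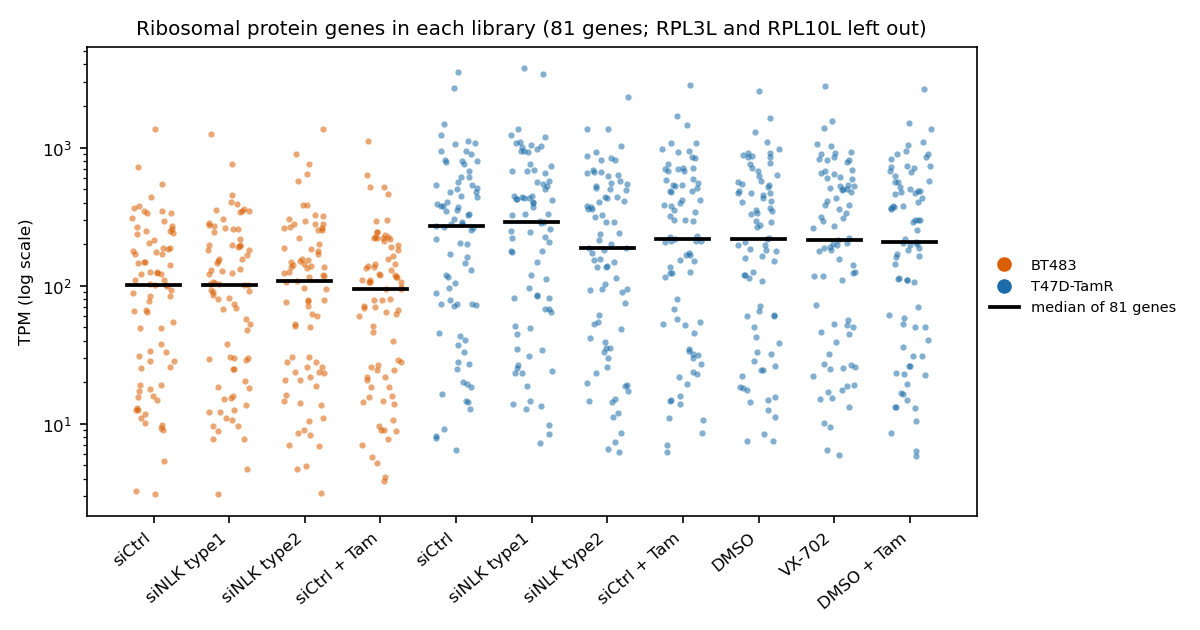
TPM (log axis) of 81 ribosomal protein genes in each of the 11 libraries (1 point a gene, with a black bar at the median of the 81). Left out are RPL3L, at or near 0 throughout, and RPL10L, at 0 in BT483 and at 2.824 to 4.725 TPM in T47D-TamR. The 4 BT483 libraries sit lower than the 7 T47D-TamR libraries.

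The widest contrast was between the lines. In BT483 the 83 genes together took 1.24%, 1.22%, 1.30% and 1.09% of all counts (control siRNA, type 1, type 2, control siRNA with tamoxifen). In the same 4 conditions of T47D-TamR they took 3.45%, 3.89%, 2.63% and 3.11%, and without siRNA 3.07% (DMSO), 3.27% (VX-702) and 3.14% (tamoxifen). The lines did not overlap, and 95% Wilson intervals, which cover counting error only, spanned at most 0.015 percentage points. With the pseudogenes added, the shares were 1.51 to 1.81% in BT483 and 3.75 to 5.31% in T47D-TamR. These are shares of sequenced poly(A) RNA, so fewer ribosomal protein mRNAs per cell and more of other mRNAs cannot be told apart. Nor can the lines be told apart from the tamoxifen in which T47D-TamR was kept, which BT483 was not.

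Gene by gene, edgeR's quasi-likelihood test on the 4 siRNA libraries of each line, blocked by condition, called 74 of the 82 genes tested lower in BT483 and 0 higher (Benjamini-Hochberg adjusted p under 0.05 over 21990 genes). RPL3L had too few counts to be tested. Of all genes tested, 70.7% were called in some direction and 35.1% were called lower in BT483. The median log2 fold change of the 82 genes was -1.42, a level 2.67-fold higher in T47D-TamR, with quartiles of -1.79 and -1.10, against a median of 0.01 over all genes. Levels were more than 2-fold lower in BT483 for 65 genes and more than 4-fold lower for 12. In scaled counts, all 4 BT483 libraries lay below all 4 T47D-TamR siRNA libraries for 73 of the 82 genes, against 32.4% of all genes tested.

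The difference was of like size in both subunits: the median log2 fold change was -1.42 for 50 large subunit genes (46 called lower) and -1.41 for 32 small subunit genes (28 called lower). Genes with a pyrimidine run at the start had a median of -1.31 (n = 47), and genes in the table without one -1.43 (n = 19). This split goes by the exact annotated start. Some genes counted as without a run, such as RPL10A and RPL4, have a pyrimidine run a few bases after it. Genes with under 20% of their counts at pseudogenes had a median of -1.50 (n = 52), and the others -1.35 (n = 30). The difference was smaller once counts were corrected for transcript length and GC content (median -0.98, 63 called lower and 3 higher), and on the authors' normalized log2 TPM values (median -1.09, 67 called lower). It was -1.54 without the type 2 and tamoxifen libraries and -1.30 without the other 4, both choices made after the data were seen.

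RPL32 differed most among the genes detected in both lines. It stood at 101, 85.6, 95.3 and 69.6 TPM in BT483 and at 501, 544, 494 and 533 TPM in the matched T47D-TamR libraries (log2 fold change -2.74, SE 0.13, adjusted p = 1.066e-08, edgeR), so the BT483 values were all far below the lowest T47D-TamR value. RPS12, a small subunit protein, stood at 141, 104, 106 and 94.6 TPM against 790, 660, 429 and 678 TPM (log2 fold change -2.67, SE 0.16, 6.37-fold higher in T47D-TamR). RPL11, which with RPL5 and 5S rRNA can bind the p53 regulator MDM2, stood at 187, 193, 200 and 164 TPM against 1064, 1100, 877 and 946 TPM (log2 fold change -2.59, SE 0.13, 6.01-fold). Its partner RPL5 differed less, from 110 to 157 TPM in BT483 and from 407 to 448 TPM in the T47D-TamR siRNA libraries (3.60-fold, log2 SE 0.11). The mRNAs of these 2 MDM2-binding proteins were thus both lower in BT483, with a wider gap for RPL11.

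RPS6 stood at 348, 343, 263 and 244 TPM in BT483 and at 1117, 1085, 1036 and 1078 TPM in T47D-TamR (4.10-fold, log2 SE 0.11). The X-linked RPS4X was 2.70-fold higher in T47D-TamR (log2 SE 0.12). Both kept within narrow bounds inside T47D-TamR, where the highest of all 7 libraries exceeded the lowest by 0.29 on the log2 scale for each, against a median of 0.63 over the 82 genes.

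Among the smallest called differences were those of RPL26L1 (log2 fold change -0.36, adjusted p = 0.04715), RPL10 (-0.55, 0.001018), RPLP1 (-0.55, 0.004946) and RPL9 (-0.62, 0.003028), all edgeR. RPL26L1 turned positive with length and GC offsets (0.28, not called). It lost its call whichever of the 8 libraries was left out, and RPLP1 lost its call without either type 1 library. RPL9 lost its call with the offsets (-0.03), and RPL10 (-0.20) and RPLP1 (-0.12) lost theirs on the normalized log2 TPM values.

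The 8 genes tested but not called were RPL37A, RPL38, RPL39, RPS27A, RPS29, RPS27, RPS27L and RPL21, with log2 fold changes from -1.31 to 0.29. RPL37A (-1.26), RPL38 (-1.28), RPL39 (-1.31) and RPS27A (-1.30) were close to the median of the 82 genes and had standard errors of 0.49 to 0.64, against a median SE of 0.15. The value of RPL39 averaged unlike libraries: it was -2.57 and called without the type 2 and tamoxifen libraries, and -0.06 without the other 4. RPL39 was also called lower with pseudogenes added (-1.38) and without the block (-1.47). RPS29 had a log2 fold change of -0.20 (SE 0.40). RPL21 stood at 10.2, 9.61, 10.98 and 8.97 TPM in BT483 and at 8.17, 8.38, 6.22 and 6.29 TPM in T47D-TamR (log2 fold change 0.29, SE 0.20), and 90.5% of the counts in its family lay at pseudogenes. RPS27 stood at 24.7 to 30.9 TPM in BT483 and at 27.8 to 31.7 TPM in the T47D-TamR siRNA libraries (log2 fold change -0.27, SE 0.16), and with length and GC offsets it was called higher in BT483 (0.47, adjusted p = 0.01664, the lowest of 11 alternatives, whose highest was 0.5531).

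**Figure D2:**
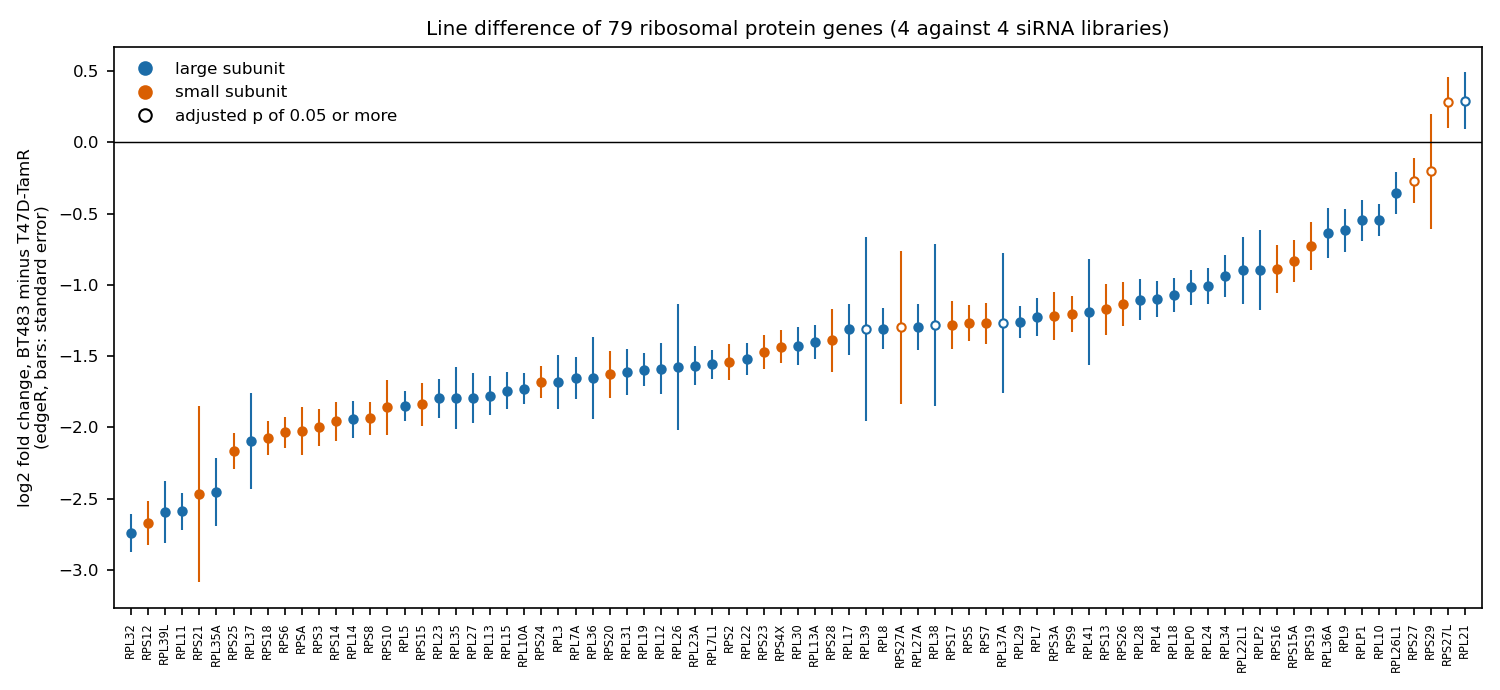
log2 fold change, BT483 minus T47D-TamR, of 79 of the 82 ribosomal protein genes tested, in rising order (edgeR fit of 4 against 4 siRNA libraries; bars, standard error; filled, adjusted p under 0.05). RPL10L, with 0 counts in BT483, is among those not drawn. Large and small subunit genes are spread over the whole range and 77 of the 79 points are below 0.

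The near copies did not all follow their core genes. RPL10L, an intronless copy of RPL10 known from testis, had 0 counts in all 4 BT483 libraries and 23 to 31 counts in each of the 7 T47D-TamR libraries. Against a floor of 3 counts over the 4 BT483 libraries (0.0364 CPM), it was at least 29.01-fold higher in T47D-TamR (1.06 CPM over the siRNA libraries), while RPL10 differed by a log2 fold change of -0.55. RPL39L, also best known from testis, stood at 18.0, 10.7, 16.2 and 9.03 TPM in BT483 and at 73.3, 80.99, 61.1 and 68.4 TPM in the matched T47D-TamR libraries (log2 fold change -2.59, SE 0.22, 6.04-fold). It made up 62.1 to 82.4% of the summed TPM of RPL39 and RPL39L in T47D-TamR and 36.6 to 66.5% in BT483. The pseudogenes of RPL39 are not in this sum.

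RPS27L, a p53-induced relative of RPS27, was one of the 2 genes with a positive difference. It stood at 15.6, 16.0, 23.4 and 14.6 TPM in BT483 and at 14.5, 13.5, 11.3 and 11 TPM in T47D-TamR (log2 fold change 0.28, SE 0.18, adjusted p = 0.1846, edgeR), so its lowest BT483 value was just above its highest T47D-TamR siRNA value, and in scaled counts the lines overlapped. Its call and direction rested on libraries and settings: it was called higher in BT483 with length and GC offsets (0.89), without the filter on low counts (0.32, adjusted p = 0.04997) and without the control and type 1 siRNA libraries (0.69), and its sign turned without the type 2 and tamoxifen libraries (-0.08). RPL26L1 held 56.1 to 66.2% of the TPM of RPL26 and RPL26L1 in BT483 and 27.5 to 50.0% in T47D-TamR. The pseudogenes of RPL26, which held 76.4% of the counts shared by RPL26 and its copies, are not in this sum. RPL22L1, which RPL22 protein is known to repress, was lower in BT483 (log2 fold change -0.90, SE 0.23; -0.26 and not called with length and GC offsets), as was RPL22 (-1.52, SE 0.11). RPL7L1, a relative of RPL7 in large subunit assembly, was 2.94-fold higher in T47D-TamR (log2 SE 0.10). RPL3L, known from striated muscle, had at most 7 counts in any library.

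Outside the rule, FAU was lower in BT483 (log2 fold change -0.65, SE 0.17, adjusted p = 0.00537, edgeR). RPL36AL, the intronless copy of RPL36A, held 97.2 to 99.03% of the TPM of the pair in every library.

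Other parts of the translation pathway differed between the lines as follows, by the same fit. Of 23 translation factors and other mRNAs with the TOP motif, 22 were tested and 22 were called lower in BT483 (median -1.15), led by EEF1A1 (-2.25, SE 0.10), which brings tRNA to the ribosome, EIF3G (-2.09, SE 0.11) and EIF3L (-1.88, SE 0.14), subunits of the initiation factor eIF3. Of 34 ribosome biogenesis genes, 24 were called lower and 2 higher (median -0.91), among them RRP12 (-2.58, SE 0.12) and UTP4 (-2.15, SE 0.12) lower, and MYC, a transcription factor that drives this programme, higher (2.40, SE 0.43). Of 16 chaperones and importers of ribosomal proteins, 10 were lower and 3 higher, and of 78 mitochondrial ribosomal protein genes 77 were tested, 55 lower and 5 higher (median -0.78). The 22 genes that control TOP mRNAs through mTORC1 and LARP1 moved both ways, with 9 called higher and 7 lower (median 0.12): MTOR was lower (-1.53, SE 0.12), and the mTOR inhibitor DEPTOR (1.33, SE 0.18) and PDCD4, an inhibitor of initiation (1.55, SE 0.15), were higher. The 13 mitochondrially encoded genes had 8 called higher and 0 lower (median 0.49). Of all 21990 genes tested, 7709 (35.1%) were called lower and 7833 higher, 70.7% in some direction. The counts of the 22 mTORC1 and LARP1 genes lay near these shares, so they are not read as a result about that list.

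Lowering NLK was tested with both siRNAs and both lines together. No ribosomal protein gene passed the test: edgeR called 0 of 82, against 1 of 24023 genes in all (0.00416%), which was NLK (log2 fold change -1.77, SE 0.21, adjusted p = 0.02392). DESeq2 and limma also called 0 of the 82, and 2 had an unadjusted p under 0.05. The median log2 fold change was 0.01 (43 genes positive, 39 negative), with a range of -0.44 to 0.28 and a median SE of 0.18. The genes of smallest p were RPS12 (-0.44, SE 0.18, lower in 4 of 4 knockdown libraries than in the control of the line) and RPS18 (0.28, SE 0.12, higher in 4 of 4, by 0.0003 to 0.58), both with an adjusted p of 0.8754. RPL22 (-0.25), RPL7 (-0.27) and RPL13A (-0.31) were also lower in 4 of 4, and RPL28 was higher in 3 of 4 (0.23). Of the 82 genes, 5 were lower and 3 higher in 4 of 4, and the share over all genes was not computed. The named genes were picked by p from the same libraries, so a shared sign adds no support. RPL13A had 86.8% of its counts at pseudogenes, and its value was 0.03 when these were added.

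Behind the near-zero median, the 2 siRNAs did not move together in T47D-TamR. Against the control siRNA, type 1 had 69 of 82 genes higher (median 0.23) and type 2 had 73 lower (median -0.37). In BT483, type 1 had 33 higher and 48 lower (median -0.01), and type 2 had 44 higher and 37 lower (median 0.05). In the fit per line, edgeR called 0 of 82 genes in BT483 (median 0.01, 0 with an unadjusted p under 0.05) and 0 in T47D-TamR (median -0.01, 1 with an unadjusted p under 0.05), with 0.00416% of all genes called in each. The T47D-TamR median was -0.29 without the type 1 library and 0.30 without the type 2 library.

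In BT483 the smallest p-values belonged to RPS10 (0.56, SE 0.33), RPS3A (-0.43, SE 0.27), RPS15A (0.32, SE 0.22), RPS7 (-0.33, SE 0.24), RPS12 (-0.42, SE 0.29) and RPL3 (-0.32, SE 0.24), each with an adjusted p of 1. In T47D-TamR they belonged to RPS18 (0.49, SE 0.16, adjusted p = 0.7686, edgeR), RPS12 (-0.51, SE 0.26), RPL13A, RPL7, RPS15A and RPL10, the last 4 between -0.37 and -0.20. The test of the difference between the lines called 0 of 82 genes and 0% of all genes (0 by DESeq2 and limma, 0 of the 82 with an unadjusted p under 0.05). RPS18 (-0.47, SE 0.23) and RPS15A (0.57, SE 0.29) were among the genes of smallest p, as were RPS10 (0.52), RPL13 (-0.31) and RPS27L (0.50).

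The siRNAs were then compared with each other over both lines, type 2 minus type 1. Of the 82 genes, 74 were lower with type 2 and 8 higher (median -0.29, range -0.76 to 0.51), against a median of 0.01 over all genes. edgeR called 0 of the 82 and 79 of 24023 genes (0.329%); 13 of the 82 had an unadjusted p under 0.05. DESeq2 called 2 and limma 0. The lines differed: in T47D-TamR 79 of 82 genes were lower with type 2 (median -0.57), and in BT483 50 were higher (median 0.11). The median over both lines was -0.03 without the T47D-TamR type 1 library and -0.01 without the T47D-TamR type 2 library.

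RPL15, a large subunit protein, had the smallest p. It stood at 102 (type 1) and 77.4 TPM (type 2) in BT483 and at 332 and 189 TPM in T47D-TamR (log2 fold change -0.67, SE 0.16, adjusted p = 0.1116, edgeR). Its adjusted p ran from 0.005987 to 0.4227 over 8 other settings and was under 0.05 with DESeq2, without the filter on low counts and with length and GC offsets. With pseudogenes added, RPL15 was -0.36 and RPL13A -0.27, neither called. Without the BT483 library with control siRNA and tamoxifen, RPL15, RPSA and RPL13A were called (adjusted p = 0.03401, 0.03829 and 0.02972, edgeR). RPL24 (-0.59, SE 0.16), RPL13A (-0.55, SE 0.15), RPS23 (-0.57, SE 0.16), RPSA (-0.67, SE 0.21) and RPS26 (-0.56, SE 0.19) followed, and each was lower with type 2 in both lines. In all, 31 of the 82 genes were lower in both lines and 2 higher. The share of all genes with 1 sign in both lines was not computed, so these counts have no background. The named genes were picked by p from the same libraries, so their shared sign adds no support. All 22 tested translation factors of the TOP list were negative in the fit over both lines (median -0.18, 0 called). The summed TPM of the 23 listed was 3808 (type 1) and 3180 (type 2) in BT483, and 7611 and 8052 in T47D-TamR. In each line this sum thus went the other way from the median of the ribosomal protein genes. 2 genes of the other lists were called lower: IPO5, an importer of ribosomal proteins (-1.03, SE 0.14, adjusted p = 0.00865), and RRN3, an initiation factor of RNA polymerase I (-0.97, SE 0.15, adjusted p = 0.01563), both edgeR.

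**Figure D3:**
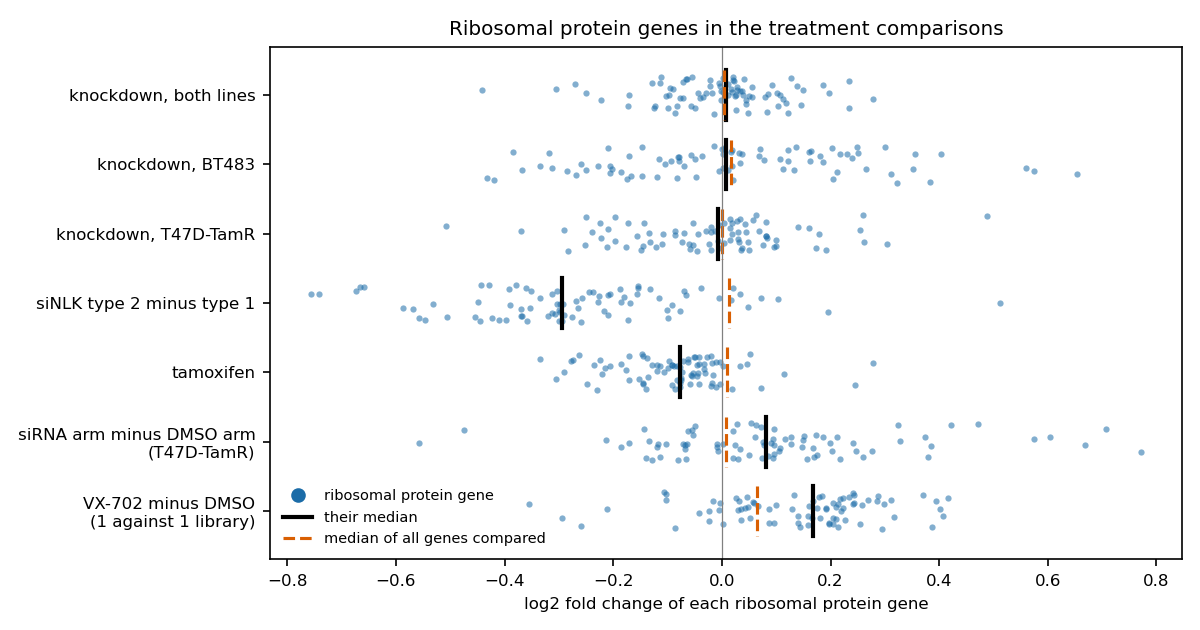
log2 fold change of each ribosomal protein gene (points; 82 genes, 81 for VX-702) in 7 comparisons, with their median (black) and the median of all genes compared (orange, dashed). The points centre on 0 for knockdown and left of 0 for type 2 minus type 1 (median -0.29).

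Tamoxifen was tested over 3 pairs of libraries (control siRNA in each line, and DMSO in T47D-TamR). edgeR called 0 of 82 genes and 9 of 24023 in all (0.0375%), DESeq2 and limma also 0 of the 82, and 1 had an unadjusted p under 0.05. The fitted values leaned to the negative side, 73 of 82 with a median of -0.08, against 48.7% of all genes and a median of 0.01. With 1 library left out, the median ran from -0.14 (without DMSO in T47D-TamR, with or without tamoxifen) to -0.04 (without BT483 control siRNA with tamoxifen, or T47D-TamR control siRNA). The 3 pairs differed: the median was -0.16 in BT483 (60 genes lower), -0.07 in T47D-TamR with control siRNA (51 lower) and 0.04 in T47D-TamR without siRNA (48 higher). Lower in all 3 pairs were 13 genes, and higher in all 3 was 1. The share of all genes with 1 sign in all 3 pairs was not computed, so these counts have no background. RPL7 (-0.33, SE 0.15), RPL22 (-0.27, SE 0.14), RPS24 (-0.26, SE 0.14), RPS12 (-0.29, SE 0.18) and RPS15A (-0.23, SE 0.15) had the smallest p-values and were lower in 3 of 3 pairs, with adjusted p-values of 0.7523 to 0.8835 (edgeR). RPL39L came next (-0.31, SE 0.22), lower in 2 of 3. All of these genes were picked by p from the same pairs, so a shared sign adds no support.

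The siRNA libraries of T47D-TamR were also set against its libraries without siRNA, with knockdown, tamoxifen and VX-702 as terms of the fit. edgeR called 0 of the 82 genes and 5 of 24023 (0.0208%), DESeq2 and limma 0 of the 82, and 1 of the 82 had an unadjusted p under 0.05. The median was 0.08 (56 positive), and it rested on single libraries: it was -0.01 without the DMSO library and 0.18 without the library with DMSO and tamoxifen, and -0.01 on the normalized log2 TPM values. The time of drug treatment is not clearly given for the libraries without siRNA, so a difference in time cannot be told apart from this comparison. The gene of smallest p was RPS18, at 535 and 588 TPM with control siRNA without and with tamoxifen, 762 and 807 TPM with the NLK siRNAs, and 911, 860 and 855 TPM with DMSO, VX-702 and tamoxifen without siRNA. The 2 libraries with control siRNA were thus the lowest of the 7. The fitted log2 fold change was -0.56 (SE 0.14, adjusted p = 0.5026, edgeR), and the adjusted p ran from 0.01783 (no filter on low counts) to 0.8876 over 8 other settings. RPS12 (0.42, SE 0.21), RPL14 (0.33, SE 0.17), RPL22L1 (0.47, SE 0.27) and RPL17 (0.38, SE 0.22) were among the genes that followed.

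The 3 reference genes of quantitative PCR did not hold 1 level. Between the lines, RPLP0 was 2.02-fold, RPL13A 2.64-fold and RPS18 4.21-fold higher in T47D-TamR (log2 SE 0.12 each). RPLP0, of the ribosomal stalk, stood at 338, 361, 278 and 218 TPM in BT483, at 474, 564, 542 and 537 TPM in the T47D-TamR siRNA libraries, and at 548, 658 and 570 TPM with DMSO, VX-702 and tamoxifen. RPL13A stood at 93.5, 91.2, 59.9 and 71.6 TPM, at 205, 175, 139 and 225 TPM, and at 198, 223 and 218 TPM. Within T47D-TamR the highest library exceeded the lowest by 0.53 (RPLP0), 0.89 (RPL13A) and 0.74 (RPS18) on the log2 scale of scaled counts, with the VX-702 library highest for each. These ranges were not tested. The top rank of VX-702 depended on the scaling. In TPM, control siRNA with tamoxifen was highest for RPL13A (225, VX-702 223) and DMSO for RPS18 (911, VX-702 860).

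**Figure D4:**
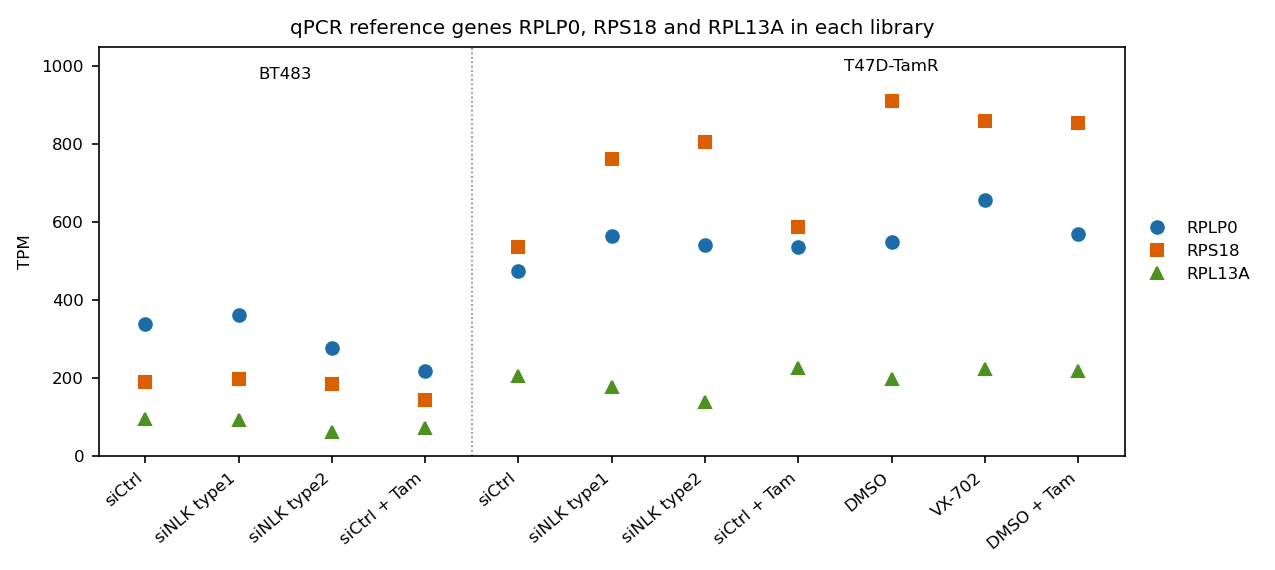
TPM of RPLP0, RPS18 and RPL13A in each of the 11 libraries (1 value a library, linear axis from 0). All 3 are lower in every BT483 library than in any T47D-TamR library, and RPS18 is lowest of the 7 T47D-TamR libraries in the 2 with control siRNA.

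VX-702 was compared with DMSO as 1 library against 1, with no replicate check and no test. None of 81 genes with at least 5 CPM on average passed an absolute log2 difference of 0.5, against 8.67% of 11737 genes. The difference was positive for 67 and negative for 14 genes (median 0.17, all genes 0.06), and the median was 0.08 with library totals, 0.12 with length and GC offsets and 0.04 on the normalized log2 TPM values. RPS15 (0.42), RPS28 (0.41) and RPL28 (0.40) were highest. RPS15 stood at 134% of its DMSO level with an exact 95% interval of 129 to 138%, which covers counting error only. RPL41 (-0.35), RPL7 (-0.30) and RPL22 (-0.26) were lowest, RPL41 at 78.2% of DMSO (75.7 to 80.8%). RPS6 stood at 106% and RPL39L at 102% (90.4 to 115%).

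The genes with the very widest ranges between libraries encode small proteins in T47D-TamR, and less uniformly so in BT483, with exceptions in both lines. In T47D-TamR the widest ranges over 7 libraries belonged to RPL39 (1.93 on the log2 scale, 51 codons), RPL37A (1.84, 92 codons), RPS29 (1.70, 56 codons), RPS21 (1.69, 83 codons) and RPL38 (1.64, 70 codons), against a median of 0.63. In BT483 the widest over 4 libraries were RPS21 (1.19), RPL38 (1.05) and RPL39 (0.94), against a median of 0.44. RPS19 (0.91, 145 codons) and RPL39L (0.91, 51 codons) came next. The longer genes RPSA (0.81, 295 codons) and RPL3 (0.76, 403 codons) ranked 7 and 11 there, and RPL37A and RPS29 ranked 17 and 30. RPS21 stood at 380, 352, 765 and 517 TPM in BT483, at 3531, 3753, 1355 and 1698 TPM in the T47D-TamR siRNA libraries, and at 1636, 1564 and 1505 TPM without siRNA. RPL39 stood at 9.03, 8.84, 13.8 and 15.7 TPM, at 40.7, 49.4, 15.1 and 14.6 TPM, and at 18.5, 17.5 and 16.4 TPM. For both genes the control and type 1 siRNA libraries were the lower 2 in BT483 and the higher 2 in T47D-TamR.

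The 82 genes were split into 3 groups of near equal size by coding length, at 133 and 188 codons, and each library was set against the mean of its line. The 28 short genes had medians of -0.09, -0.13, 0.23 and -0.06 in BT483 (control siRNA, type 1, type 2, control siRNA with tamoxifen) and 0.30, 0.43, -0.46 and -0.08 in T47D-TamR, with -0.09, -0.07 and -0.11 without siRNA. The 27 long genes had 0.17, 0.10, -0.06 and -0.19 in BT483, and values from -0.22 to 0.12 in T47D-TamR. In BT483 type 2, short genes were thus above and long genes below the mean of the line. The 39 nuclear genes of oxidative phosphorylation, which also encode small proteins, had medians of -0.21, -0.28, 0.30 and 0.20 in BT483 and of 0.27, 0.47, -0.36 and -0.06 in T47D-TamR siRNA libraries. The 577 other coding genes of at most 133 codons had -0.12, -0.12, 0.15 and 0.12 in BT483 and 0.14, 0.23, -0.14 and 0.02 in T47D-TamR siRNA libraries. The part that this length pattern has in the siRNA, tamoxifen and arm differences of the ribosomal protein genes was not tested beyond the fit with length and GC offsets, in which the median for type 2 minus type 1 was -0.22 (all genes 0.02).

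**Figure D5:**
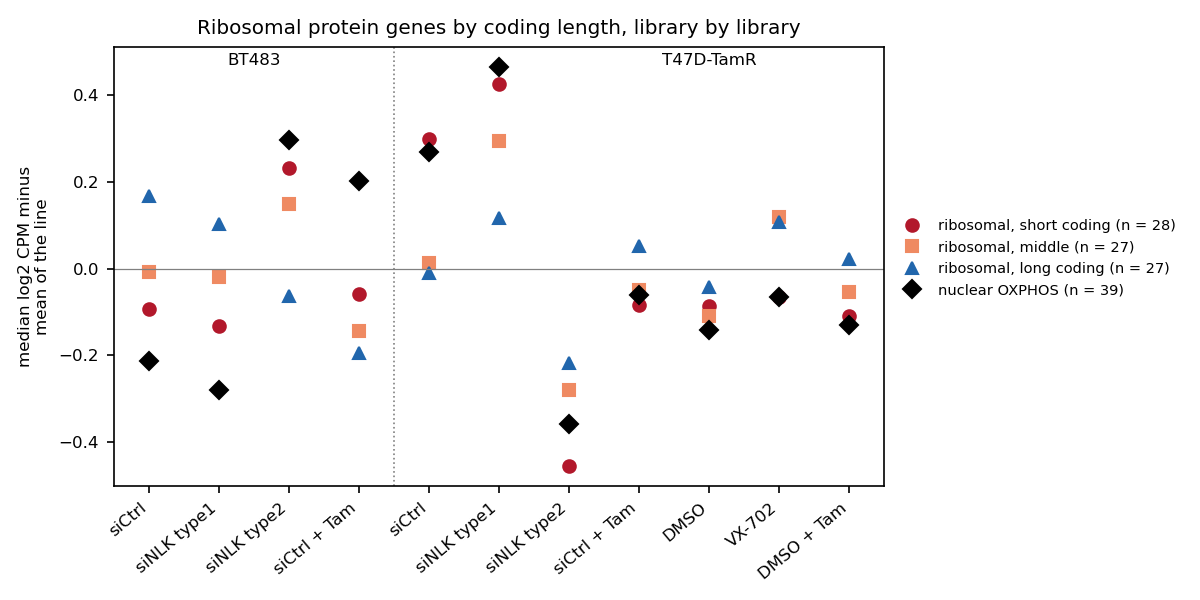
Median log2 CPM, minus the mean of the line, of short (28), middle (27) and long (27) ribosomal protein genes by coding length and of 39 nuclear genes of oxidative phosphorylation, in each of 11 libraries. Short ribosomal protein genes run from -0.46 (T47D-TamR type 2) to 0.43 (T47D-TamR type 1), near the oxidative phosphorylation genes (-0.36 and 0.47).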

How the data were processed

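RNA was sequenced from 11 libraries, 1 per group, with a stranded poly(A) kit and paired reads, per the labels' protocols. RNA extraction is described with RNAzol in the series text and with an RNeasy kit in the labels' protocols. Per gene symbol, each library has raw counts that the authors deposited (GRCh38 per the submitters' processing notes). The count files carry the name of featureCounts, a read counter; its settings, the annotation and the aligner were not given in the sources used here. Also deposited were log2(TPM + 1) values, from which TPM was taken back, and a table of log2 TPM values whose distributions are almost equal among libraries. Groups came from the sample titles, and 0 columns of samples were left unmapped.

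Counts were tested with edgeR 4.0.16 in R 4.3.3: TMM factors (0.936 to 1.07), filterByExpr, robust quasi-likelihood F tests, 2-sided, adjusted by Benjamini-Hochberg across every gene tested, with calls at an adjusted p under 0.05. Knockdown, tamoxifen and the arm difference came from an additive fit of all libraries with arm (siRNA in BT483, siRNA in T47D-TamR, drug in T47D-TamR) and VX-702 as terms. Knockdown in each line was taken from a fit with terms per line, and the siRNA difference from one with a term for type 2. The line difference used the 8 siRNA libraries, with condition as a block. Where a group rests on 1 library, its spread was taken to equal that of the rest. Biological coefficients of variation were 0.162 to 0.179. VX-702 was set against DMSO by log2 CPM with a prior count of 2. Alternatives were DESeq2 1.42.0, limma 3.58.1 on the normalized log2 TPM table (mean of at least 1), library totals, TMM without the ribosomal protein and mitochondrially encoded genes, other filters, length and GC offsets (GENCODE 29, fitted without these genes), pseudogene counts added, and each library left out.

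Depth ran from 14637083 to 26915863 counts, and the floor of 3 counts corresponded to 0.112 to 0.205 CPM. On simulated counts with known changes, 73% of 100 genes changed 2-fold and 97% of 100 changed 4-fold were called in the knockdown fit of 19349 genes. In the line fit of 19318 genes it was 73% of 100 and 100% of 99. The simulation gave every gene the same spread and no other difference between lines or arms. It also held many more changed genes than the real knockdown fit called. These shares check the fits and do not give the power of the tests on the real data. Genes were named by a rule: in each tested comparison all called ribosomal protein genes if at most 10, otherwise the 5 highest and 5 lowest by fold change among them, filled to 6 by smallest p; for VX-702 the 3 highest and 3 lowest; by level the 6 highest and 6 lowest; always the reference genes, RPS6, RPS4X, RPL5, RPL11, RPL22 and the near copies; and up to 3 called genes of each other list. The widest within-line ranges, and the genes not called between lines, were named after their values were seen. The genes and lists were chosen with earlier results of these data known. Some genes that this rule names are not reported here.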

Additional observations from a re-analysis of the deposited data

Results flagged for a closer look

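In 4 of the 14 ribosomal protein genes named for knockdown, both NLK siRNAs moved one way in BT483 and the other way in T47D-TamR. Of the 82 tested, 6 did so, and the share over all genes was not computed. RPS27L and RPL13 were named through the test of the difference between the lines itself, which favours opposite signs. Both siRNAs of a line share its control library, so their signs are not independent. RPS27L was 0.36 in BT483 and -0.14 in T47D-TamR (difference 0.50), RPS15A 0.32 and -0.25 (difference 0.57), RPL13 -0.21 and 0.10 (difference -0.31), and RPL3 -0.32 and 0.08 (difference -0.40), all log2 fold changes. The test of each difference, edgeR's over all genes, gave an adjusted p of 1.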

How the results depend on the processing

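The line difference kept its direction, though its size moved. The number of ribosomal protein genes called ran from 66 to 77 over 11 other settings and from 67 to 74 with each library left out. The 66, with length and GC offsets, included 3 called higher in BT483. The median of the ribosomal protein genes stayed negative throughout. The median was -1.09 with limma on the deposited normalized log2 TPM values and -0.98 with length and GC offsets; with each library left out it ran from -1.59 to -1.33, the 2 lowest without a type 2 library. The median of all genes, 0.01 here, was 0.14 with library totals and 0.11 without the filter, where the ribosomal protein genes stood at -1.29 and -1.37. Among the genes that turned in sign were RPL26L1 (0.28 with offsets), RPS27 (0.47 with offsets) and RPS27L (-0.076 without the type 2 and tamoxifen libraries).

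Outside the line difference, 2 genes (RPS18 and RPS21) were called in the arm difference without the filter on low counts. In the siRNA difference, 2 genes were called with DESeq2 (RPL15, RPL24), 3 without the filter (with RPS23), 1 with offsets (RPL15), and 0 to 3 with each library left out, the 3 without BT483 control siRNA with tamoxifen; its median ran from -0.47 (without BT483 type 2) to -0.0078 (without T47D-TamR type 2), and was -0.025 without T47D-TamR type 1. The median for knockdown in T47D-TamR ran from -0.29 to 0.30, and that for knockdown was -0.17 without the term for arm, where RPS18 turned to -0.16. RPL13A turned with pseudogenes added (0.033 for knockdown, 0.0019 in T47D-TamR). With each library left out, RPL7 ran from -0.55 to 0.061 and RPS15A from -0.35 to 0.098 for knockdown in T47D-TamR, both positive only without its control siRNA library. For VX-702, 1 gene passed the fold on the normalized log2 TPM values (RPL41, -0.54) and 1 with offsets (RPS23, 0.54). Of the counts and medians over alternatives, 294 kept within their bounds and 16 moved. No paired analysis was possible by replicate number because each group has 1 library; the line fit was blocked by condition, and 77 genes were called without that block. A fit without BT483 control siRNA could not be had for knockdown in BT483 or its difference between the lines.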
